A study of Drosophila melanogaster with 5 samples.

Results

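The bithorax complex is the stretch of chromosome arm 3R of Drosophila melanogaster that holds the Hox genes Ubx, abd-A and Abd-B, in this order of rising coordinate. Binding there was mapped by chromatin immunoprecipitation and sequencing (ChIP-seq), and the peaks described are those that lie wholly between positions 12480000 and 12810000 of 3R on genome build dm3, an interval of 330 kb. It held 34 of the 5386 peaks in the 6 deposited lists. Of the 34 peaks, 28 were Pita peaks and 6 were Zw5 peaks, and 0 were ZIPIC peaks. No peak crossed an edge of the interval, with 0 in each list.

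Ubx directs the identity of the posterior thorax and the anterior abdomen, abd-A that of the middle abdomen and Abd-B that of the posterior abdomen. Their expression in each segment is set by a long series of cis-regulatory domains, which chromatin boundaries such as Mcp, Fab-7 and Fab-8 keep apart. Pita, ZIPIC and Zw5 (encoded by the gene dwg) are zinc-finger proteins that bind DNA and are counted among the insulator or architectural proteins. Pita has been described at Mcp and Fab-7. Between Ubx and abd-A the RefSeq annotation of Release 6 places 7 genes, among them the protein-coding genes CG31275 and Glut3 and the non-coding RNA gene bxd. Between abd-A and Abd-B it places 6, among them the iab4 and iab8 non-coding RNAs and the microRNA genes mir-iab-4 and mir-iab-8. That annotation is on a later build, so only names and order were taken from it and no dm3 peak was assigned to a gene or boundary.

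All libraries came from wild-type Oregon-R embryos collected over 12 h and fixed with 1.8% formaldehyde for 15 min, so each pools whole embryos of many ages, with cells in which a given Hox gene is active and cells in which it is silent. Separate precipitations used rabbit antibodies raised against part of each protein (Pita residues 550 to 683, ZIPIC residues 84 to 257, Zw5 residues 98 to 302), and the controls were input DNA and a precipitate labelled as preimmune rabbit serum, for which the protocol text names rabbit IgG. Each of these 5 libraries was sequenced once, so nothing here has a replicate. By the peak names, ZIPIC was precipitated from chromatin preparation B and both other proteins from preparation A, so for ZIPIC the preparation and the protein cannot be told apart. The median background at peaks on the rest of 3R was 10.4 fragments per base for Pita, 12.9 for Zw5 and 1.37 for ZIPIC, the lowest of the 3. Total reads per library are not known.

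Pita peaks were dense in the bithorax complex. Against input DNA there were 15 Pita peaks in the interval, numbered here as sites 1 to 15 in order of rising coordinate. Of these, 12 were also called against preimmune serum, or 80.0% (exact 95% binomial interval 51.9 to 95.7), beside 77.3% of Pita input-list peaks on the rest of 3R. Counting the peaks called against both controls gave 36.4 Pita peaks per Mb in the interval (exact 95% Poisson interval 18.8 to 63.5) and 10.9 per Mb over the other 27.5 Mb of 3R. The density ratio was 3.35 (exact 95% interval 1.71 to 5.93; two-sided exact binomial test, p = 0.000411, adjusted over the 3 proteins p = 0.00123). At the density of the rest of the arm 3.59 such peaks would lie in an interval of this length. Peaks were the units of this test. They are not independent replicates, they cluster along the arm, and the locus was chosen with results of these data known, so the p-value is too small.

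For Zw5 and ZIPIC the density did not pass the test. Zw5 had 1 peak called against both controls, or 3.03 per Mb (0.0767 to 16.9) against 3.53 on the rest of 3R, a ratio of 0.859 (0.0215 to 4.90; exact binomial p = 1, adjusted p = 1). The whole Zw5 input list gave 5 peaks in the interval, a ratio of 2.30 (0.739 to 5.47; exact binomial p = 0.0719, adjusted p = 0.108), which also missed the threshold. ZIPIC had 0 peaks in either list. A count of 0 allows up to 3 peaks, or 9.09 per Mb, and the two-sided exact 95% Poisson interval, as given for Zw5, reaches 11.2 per Mb. Both limits lie above the 4.51 per Mb of the rest of 3R, and the ratio may be up to 2.52 (exact binomial p = 0.411, adjusted p = 0.616). At the density of the rest of the arm 1.49 ZIPIC peaks would lie in the interval, so a lower density of ZIPIC was not detectable with this number of peaks.

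With 3R divided into windows of the interval's length, the bithorax window had more Pita summits than any other window of that division. It held 12 summits of peaks called against both controls, while the 82 other windows held 0 to 10 with a median of 3.5. The position of the window edges matters to this order, since a stretch of the same length that starts at the Pita summit at 3R 2471645 held 15. Stretches that touch the bithorax interval reached 14, because Pita peaks continue past its low-coordinate edge. Of the input-list peaks within 50 kb of the interval, 5 were Pita peaks, and all lay on the Ubx side. The nearest, at 3R 12465329 to 12466048, was 23.5-fold over input and had its summit 14.2 kb outside the interval. On the Abd-B side the nearest Pita summit was 95.9 kb from the edge.

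**Figure D1:**
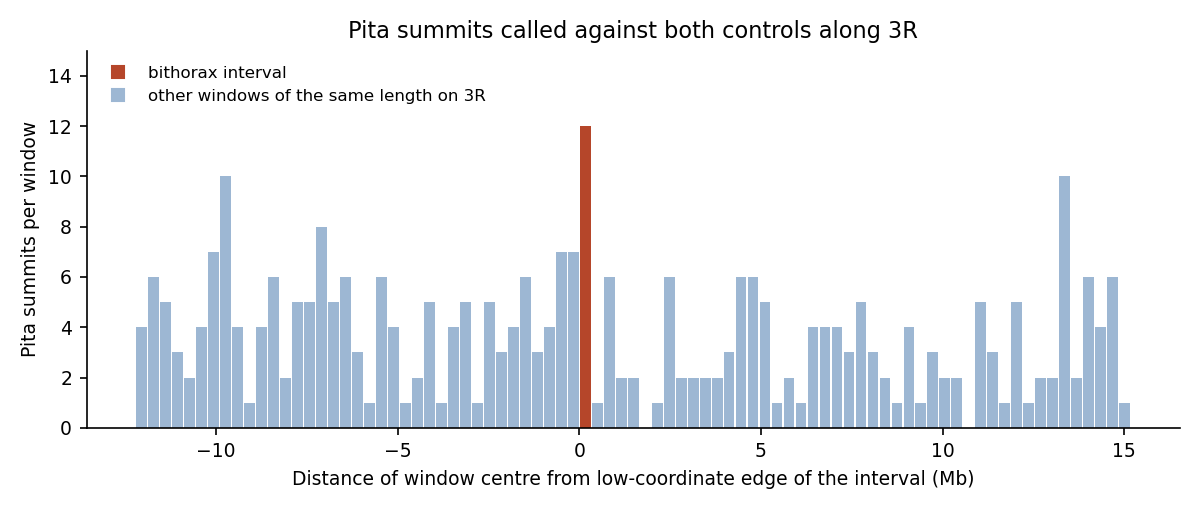
Bars give the number of Pita summits called against both controls in consecutive windows of 330 kb along 3R, against the distance of the window centre from the low-coordinate edge of the bithorax interval in Mb. The bithorax window (red) holds 12 and the 82 other windows (blue) hold 0 to 10.

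By fold over input, the 15 Pita sites fell into a high and a low set with no site between them. Fold here is the enrichment that the authors' peak caller gave a summit relative to the background it took from the control. The rank is that of the fold within the deposited list, with 1 as the highest. In the high set, 8 sites had folds over input of 23.4 to 42.6, and in the low set 7 sites had folds of 2.96 to 7.82. A dividing fold of 20, chosen after the values were seen, was reached by 39% of Pita input-list peaks on the rest of 3R. Among the sites called against both controls the median fold was 30.9, against 20.6 for the 299 such peaks on the rest of 3R, and the upper quartiles were 37.7 and 30.7. The lower quartiles were 7.51 and 7.93. These distributions overlap, and with 1 library the difference was not tested. Over preimmune serum the sets lay closer, at 8.24-fold for site 9 of the high set and 6.10-fold for site 3 of the low set.

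**Figure D2:**
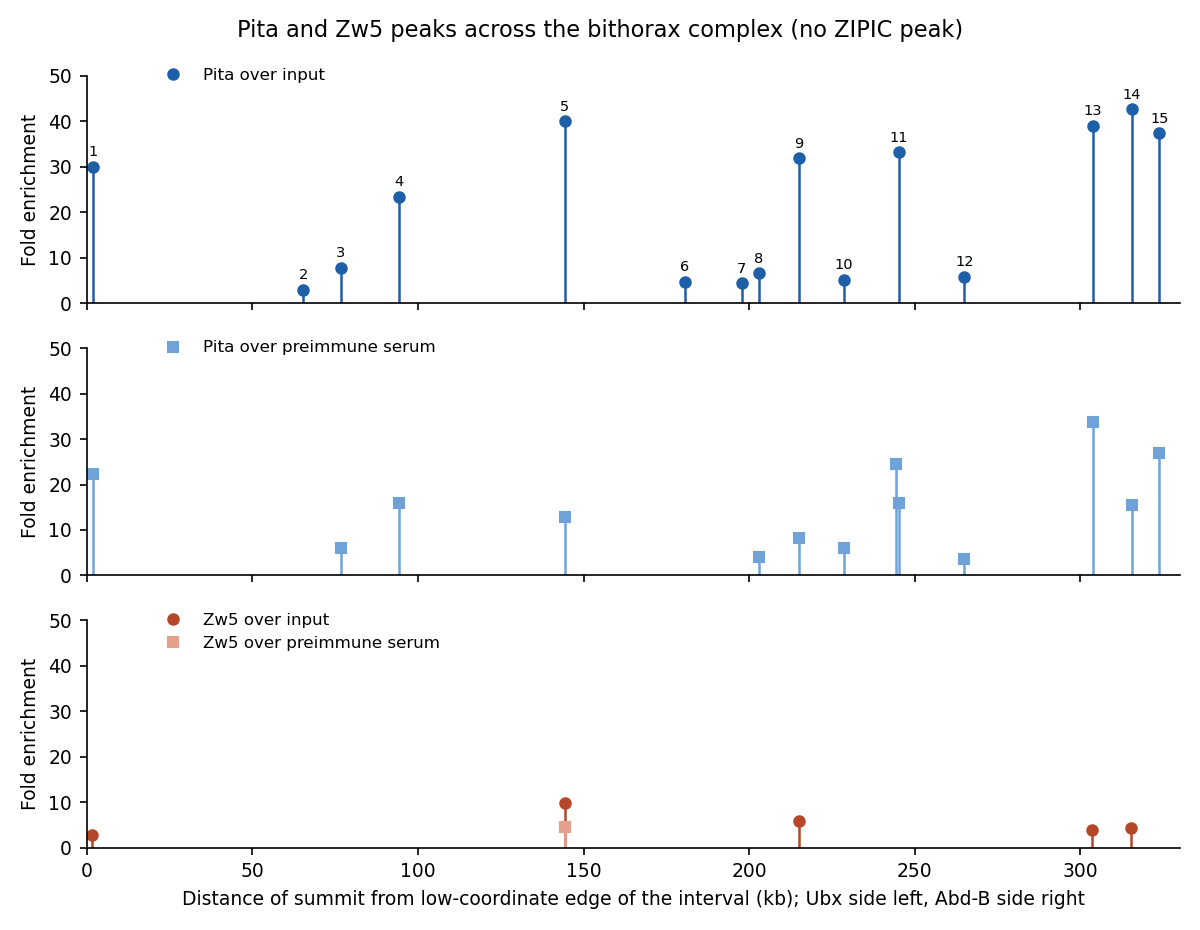
Stems give the fold enrichment of each peak at the distance of its summit from the low-coordinate edge of the interval in kb, with Pita over input at the top (sites numbered 1 to 15), Pita over preimmune serum in the middle and Zw5 over both controls at the bottom. The 8 high Pita sites reach 23.4 to 42.6-fold over input, and Zw5 folds stay between 2.83 and 9.92.

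The highest peak over input stood at the Abd-B end of the interval. Site 14, at 3R 12795114 to 12796058 with its summit at 12795480, had a fold of 42.6 over input, with 15.4 over preimmune serum. No fold was higher among the 402 Pita input-list peaks on 3R, and the site ranked 4 among all 1845. Against preimmune serum it ranked 596 of 1402, and site 13 had the highest fold of the complex over that control. The neighbours of site 14 were high as well. Site 13, at 12783321 to 12784328, was 39.0-fold over input, beside 33.6-fold over preimmune serum, and ranked 79 in the input list. Site 15, at 12803399 to 12804248, was 37.3-fold over input, beside 26.9-fold over preimmune serum, and ranked 138. Site 13 was 11.8 kb from site 14 and site 15 was 8.37 kb from it, counted between summits.

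In the middle of the interval, site 5 was the highest over input. It lay at 3R 12623752 to 12624838 and was 40.0-fold over input, beside 12.9-fold over preimmune serum. It ranked 63 in the input list and 698 of 1402 against preimmune serum. Together with sites 13, 14 and 15 it made 4 sites in the highest 10% of the Pita input list, a level reached by 9.82% of the peaks on the rest of 3R. The 4 are 26.7% of the 15 sites, with an exact 95% binomial interval of 7.79 to 55.1 that includes the share of the rest.

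The remaining high sites ran from the Ubx edge towards Abd-B. Site 1, at 3R 12481240 to 12482459, was 30.0-fold over input, beside 22.2-fold over preimmune serum. Site 4, at 12574148 to 12574925, was 23.4-fold over input, beside 15.9-fold over preimmune serum. Site 9, at 12694537 to 12695370, was 31.8-fold over input but 8.24-fold over preimmune serum, so its rank went from 299 of 1845 against input to 880 of 1402 against preimmune serum. Site 11, at 12723915 to 12725616, was 33.2-fold over input and ranked 252.

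Site 11 was the widest Pita peak of the complex, at 1702 bp. Against input it was called as 1 peak, and against preimmune serum as 2 peaks separated by 137 bp. The peak at 12723968 to 12724682 was 24.5-fold and had its summit at 12724286, and the peak at 12724820 to 12725573 was 16.0-fold and had its summit at 12725239, which was also the summit against input. The summits were 953 bp apart. Of the 299 Pita peaks called against both controls on the rest of 3R, 0.334% (1 peak) overlapped more than 1 preimmune-list peak. Sites 1, 5, 11 and 13 were over 1000 bp wide, which are 4 of 15 sites beside 6.72% of Pita input-list peaks on the rest of 3R. The width level was also chosen with the values in view. The high sites were 778 to 1702 bp wide and the low sites 263 to 579 bp, so the sets differed in width as in fold. Within the high set the orders differed, since site 14, with the highest fold over input, was 945 bp wide.

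The low Pita sites lay between the high ones, and those lost against preimmune serum were the lowest. Sites 2, 6 and 7 were called against input alone. Site 2, at 3R 12545338 to 12545600, was 2.96-fold over input. Site 6, at 12660419 to 12660739, was 4.72-fold, and site 7, at 12677589 to 12677904, was 4.34-fold. Every site with a fold over input of 5.17 or more was also called against preimmune serum.

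The other low sites were called against both controls. Site 3, at 3R 12556451 to 12556856, was 7.82-fold over input, beside 6.10-fold over preimmune serum. Site 8, at 12682730 to 12683183, was 6.58-fold and 4.02-fold, and site 12, at 12744622 to 12745200, was 5.85-fold and 3.69-fold. Site 10, at 12708372 to 12708735, was 5.17-fold over input, beside 6.06-fold over preimmune serum, and of the 12 sites it alone had the higher fold over preimmune serum. Neighbouring summits of the 15 sites were 5.18 to 63.4 kb apart, with a median of 16.9 kb. The longest gap separated sites 1 and 2 and the next, 50.0 kb, sites 4 and 5, both in the part of the interval nearer to Ubx.

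The number of fragments stacked at each summit, its pileup, gives the counts behind these folds. Pileup and background were solved from the authors' fold and p-value, so pileup is no independent measure of height. The solution was a whole number of fragments, to within 0.05, for 100% of Pita and Zw5 input-list peaks. High sites had pileups of 237 (site 4, exact 95% Poisson interval 208 to 269) to 433 (site 14, 393 to 476). Low sites had 32 (site 2, 21.9 to 45.2) to 112 (site 10, 92.2 to 135). Site 10 had the highest background of the 15, with 20.8 fragments per base where the others had 9.18 to 11.7. It therefore had more fragments than site 3 (82, interval 65.2 to 102) but a lower fold. The same background, 9.18, recurred at sites 4, 6, 8, 9, 13, 14 and 15. For Zw5 a background of 10.3 recurred at sites 5, 9, 13 and 14. At those sites the background was thus not a separate reading of the control at each locus. These intervals cover counting error only, since reads of single libraries are not replicates.

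**Figure D3:**
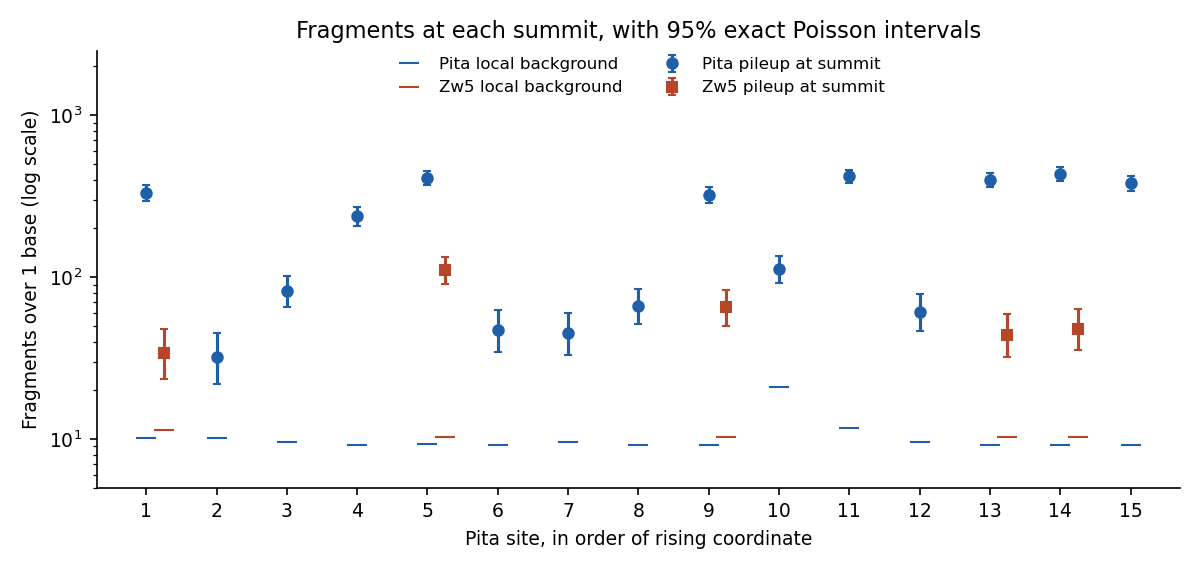
Points give the fragments stacked at the summit of each Pita site (blue) and of each Zw5 peak (red) on a log axis, with exact 95% Poisson intervals. Dashes, labelled local background, give the background solved for the same peak. Pita pileups of the 8 high sites are 237 to 433, those of the 7 low sites 32 to 112, and Zw5 pileups 34 to 111.

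At 3 high sites the fold over input was well above that over preimmune serum. The input fold divided by the preimmune fold at the nearest summit was 3.86 at site 9, 3.10 at site 5 and 2.76 at site 14, and it was 2.07 at site 11. At the other 8 sites called against both controls it was 0.853 to 1.64. Over the 12 sites its median was 1.53, and over the 299 peaks on the rest of 3R it was 1.37 with quartiles of 1.08 and 1.78. A ratio of 2.5 or more, a level chosen with the values in view, was found at 3 of the 12 sites and at 6.35% of those peaks. All 3 of these sites also carried a Zw5 peak over input, and sites 1 and 13, with ratios of 1.35 and 1.16, carried one too. Whether signal in the preimmune precipitate has a part in the Zw5 peaks was not tested.

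**Figure D4:**
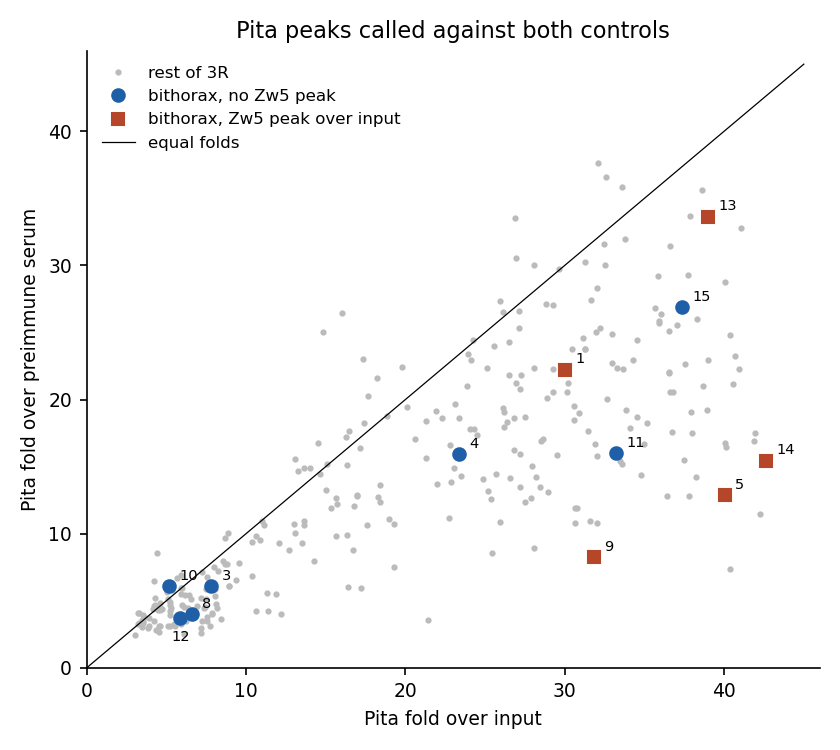
Each point is a Pita peak on 3R called against both controls, plotted by fold over input (x axis) and by the fold at the nearest summit over preimmune serum (y axis). Bithorax sites are numbered and coloured by whether a Zw5 input-list peak overlaps them. Sites 5, 9 and 14 lie far below the line of equal folds, and site 10 lies above it.

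Zw5 peaks in the bithorax complex lay on high Pita sites. All 5 Zw5 input-list peaks overlapped a Pita input-list peak, beside 41.4% of Zw5 input-list peaks on the rest of 3R. With 5 peaks the exact 95% binomial interval of the bithorax share is 47.8 to 100%, which lies above that value, though it covers counting error only. The groups also differ in make-up, since 1 of the 5 was called against preimmune serum too, beside 53.6% on the rest of 3R. Peaks of like kind were not compared, so the difference in share may reflect this mix. Seen from Pita, 5 of the 15 sites carried Zw5, or 33.3% (11.8 to 61.6), beside 18.6% on the rest of 3R. These 5 were among the 8 high sites, and of the Pita peaks with a fold of 20 or more on the rest of 3R, 29.1% carried Zw5. The share among the high sites was 62.5% (24.5 to 91.5), and both intervals of the Pita shares include the values of the rest of the arm. The Pita and Zw5 lists share the input library.

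The Zw5 folds over input in the interval were 2.83 to 9.92 with a median of 4.34, and the 181 Zw5 input-list peaks on the rest of 3R had a median of 4.88 with quartiles of 3.47 and 16.5. The highest lay at site 5. That peak, at 3R 12624242 to 12624813, was 9.92-fold over input with a pileup of 111 (91.3 to 134) and ranked 182 of 695. It was the only Zw5 peak of the interval that was also called against preimmune serum, at 4.56-fold and rank 264 of 355. That is 1 of 5 Zw5 peaks (20.0%, 0.505 to 71.6), beside 53.6% on the rest of 3R. Among Pita peaks called against both controls, 1 of 12 in the interval thus carried a Zw5 peak called against both, beside 5.35% on the rest of 3R. The Zw5 summit over input was 181 bp from the Pita summit.

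At the other Zw5 peaks the fold over input was 5.84 at site 9 (12694910 to 12695288), 4.34 at site 14 (12795302 to 12795595), 3.98 at site 13 (12783446 to 12783786) and 2.83 at site 1 (12481621 to 12482131). Their pileups were 65, 48, 44 and 34 fragments, over backgrounds of 10.3 to 11.4. The order of the Zw5 folds was not that of the Pita folds over input, where site 14 was highest. Site 14 had the third Zw5 fold. Zw5 and Pita summits were 4 bp apart at site 9, 35 bp at site 13, 53 bp at site 14 and 374 bp at site 1. The median over the 5 pairs was 53 bp, and over the 75 pairs on the rest of 3R it was 39 bp. Sites 4, 11 and 15, with Pita folds of 23.4, 33.2 and 37.3, carried no Zw5 peak in either list.

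ZIPIC was called at 0 of the 15 Pita sites, beside 7.75% of Pita input-list peaks on the rest of 3R. A count of 0 of 15 allows a share of up to 20.0% by the limit of 3 counts and 21.8% by the two-sided exact 95% binomial interval, so this does not set the complex apart. The nearest ZIPIC peak, at 3R 12866240 to 12866489, had its summit 56.3 kb past the Abd-B edge and was 11.7-fold over input. A Zw5 input-list peak at 12866320 to 12866606, 2.66-fold over input, overlapped it. On the Ubx side the nearest ZIPIC summit was 796.6 kb from the edge.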

How the data were processed

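The authors deposited 6 MACS2 peak lists, each of 1 library against 1 control. Per the submitters' processing notes, the tools were cutadapt, Bowtie and MACS2 2.1.0.20140616, with build dm3. For arguments, duplicate handling and thresholds, not given in the sources used here, no value is assumed. The deposited fold (a ratio to the background taken from the control), −log10 p, −log10 q and score belong to each peak. The score was not used further. Total reads per library are unknown.

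Coordinates are counted from 1. The length of 3R was taken as 27836126, the highest coordinate in any list. Overlap required 1 bp. Densities were compared by exact binomial tests with Benjamini-Hochberg adjustment over the proteins, which describe these lists and not variation between embryos. Pileups solve fold = (pileup + 1)/(λ + 1) with p as the Poisson upper tail. The density test and the pileup solution were tested on simulated data. The simulated peaks of the density test were independent, so clustering of peaks along the arm was not covered. Every peak of the interval is named. Alternatives were other peak sets, thresholds, overlaps, edges and comparison arms. The members and tests were chosen with earlier results of these data known. No dm3 genome was used, so no sequence or motif was read. Python 3.11.15, numpy 2.4.6, pandas 2.3.3, scipy 1.17.1 and matplotlib 3.10.9 were used.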

Additional observations from a re-analysis of the deposited data

How the results depend on the processing

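The Pita density ratio stayed past the threshold under all 6 alternatives, between 3.19 (against all large arms) and 3.69 (interval widened by 50 kb on each side), and ZIPIC stayed at 0. The Zw5 ratio went above 1 with all input-list peaks (2.30, exact binomial test, adjusted p = 0.108) and against all large arms (1.03, exact adjusted p = 0.642), and missed the threshold under every alternative. From the side of either protein, Pita and Zw5 shared 5 sites with all peaks of the input lists and 1, site 5, with peaks called against both controls. That site was lost when the peaks called against both controls also had to have summits within 100 bp, which left 0. In the input lists the summits lay within that distance at sites 9, 13 and 14. The counts called against both controls did not change under their alternatives. The count of 4 Pita sites in the highest 10% did not change when input-list peaks were ranked by −log10 q or within 3R. The sites behind that count did change by −log10 q, where site 11 (rank 135 of 1845) replaced site 15 (rank 216). By fold in the preimmune list, site 13 was in the highest 4.85%, site 15 in 11.8%, site 14 in 42.5% and site 5 in 49.8%. Percentile ranks of the 34 peaks moved beyond their binomial interval for 21 when ranked by −log10 q and for 16 within 3R. That interval treats a rank as a count out of its list, so it is a yardstick only and measures no spread of the rank. No paired analysis was possible because each protein has 1 library. The unknown read depth of the controls limits every loss against preimmune serum.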

Other observations

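Outside the bithorax interval, 5 stretches of 330 kb on the large arms that do not overlap each other held at least 12 Pita summits called against both controls. The first summit of each was at 3R 2471645 and X 17401248, with 15 summits each, and at 2L 9464663, 3L 13928096 and X 18215578, with 12 each. These stretches start at a Pita summit, so they were placed where the count is high. No gene was assigned to them.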
